A study of Homo sapiens with 8 samples.

Results

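The genes described here were TRH, which encodes the precursor of thyrotropin-releasing hormone, TRHDE, the enzyme that degrades the hormone, and 5 related aminopeptidases of the M1 family, LNPEP, ANPEP, ENPEP, ERAP1 and ERAP2. They are 7 of the 23354 genes in the deposited count table, and were selected by name with earlier results of these data known. TRH and ANPEP were chosen from their values in osmolyte-frozen against DMSO-frozen cells, so their values are given as a description, with no test. The other 5 were chosen for their relation to them, and their tests are given. All 7 passed the filter on low counts.

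RNA sequencing was done on mesenchymal stromal cells made from the established human embryonic stem cell line H9, in 8 libraries of 8 different conditions. All were grown in serum-containing medium on gelatin and used between passages 8 and 12. The fresh group held cells at 0 h, cells with 1 h of DMSO and cells with 1 h of medium. The DMSO-frozen group held cells frozen after 0 h and after 1 h in DMSO, cooled at 1 °C per minute. In the osmolyte-frozen group were cells frozen in multicomponent solutions labelled SMC (2 h), SGC (1 h) and SGI (1 h), cooled at 3 °C per minute. All 5 frozen libraries were of thawed cells. Solution and cooling rate cannot be told apart, no library held unfrozen cells in an osmolyte solution, and 1 of the 3 fresh libraries had DMSO. The labels do not say that libraries came from separate cultures, so p-values measure only the spread between libraries of unlike conditions, which may be technical. In these bulk samples, fewer cells with a transcript and less of it per cell cannot be told apart.

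Thyrotropin-releasing hormone is a short amidated peptide best known from the hypothalamus, where it drives the release of thyrotropin. It is cut out of a larger precursor by prohormone convertases, trimmed by carboxypeptidases, amidated, and destroyed outside the cell by TRHDE, a zinc enzyme of the plasma membrane that removes its first residue. M1 aminopeptidases take residues off the amino end of peptides. ANPEP (CD13) is a surface marker of mesenchymal stromal cells, ENPEP cleaves angiotensin, LNPEP cycles between vesicles and the cell surface and degrades oxytocin, and ERAP1 and ERAP2 trim peptides for presentation on HLA class I. ERAP1 and ERAP2 act in the lumen of the endoplasmic reticulum, so the members are not all enzymes of the cell surface.

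The coding sequence of TRH is shown first because it is what makes this RNA a hormone precursor. In the GENCODE v29 transcript it held 242 codons and 6 in-frame runs of codons for Gln-His-Pro-Gly, the unit from which the hormone is made, and all 6 lay between pairs of codons for basic residues, where convertases cut. Each copy is printed 5′ to 3′ with the Gln-His-Pro-Gly codons in capitals and the number of its first codon. All 6 copies use CAG for Gln, and they differ from each other in the codons for His, Pro or Gly.
TRH copy at codon 84: aaacgtCAGCATCCAGGCaaaaga
TRH copy at codon 114: aaacggCAGCACCCTGGCcgacga
TRH copy at codon 135: aagcggCAGCATCCTGGCcggcgc
TRH copy at codon 152: aagcggCAGCACCCAGGCagaagg
TRH copy at codon 186: aaacgcCAGCATCCGGGCaagagg
TRH copy at codon 227: aagcggCAGCACCCTGGTcggcgg

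Promoters are shown for TRH and ANPEP, the 2 members chosen on their values. RefSeq (GRCh38.p14) gave windows for all 7 members, from 250 bases before each start site to shortly after it, among 35116 windows in all. The TRH sequence is chr3:129974610-129974719 on the plus strand, and the ANPEP sequence is chr15:89806629-89806738 on the minus strand, 1 of 2 starts of that gene. Both run 5′ to 3′ and end at the base before the start. Capitals mark TATAA, searched on the gene's strand, and TGACCT, which is the core element of nuclear receptors AGGTCA read on the other strand, searched on both.
TRH promoter: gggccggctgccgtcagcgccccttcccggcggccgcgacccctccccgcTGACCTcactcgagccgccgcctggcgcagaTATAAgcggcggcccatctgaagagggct
ANPEP promoter: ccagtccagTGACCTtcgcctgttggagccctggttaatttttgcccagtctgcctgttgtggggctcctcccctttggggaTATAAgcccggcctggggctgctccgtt

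Counted from the start site, TATAA lay at -29 to -25 in TRH, at -28 to -24 in ANPEP and at -27 to -23 in ENPEP, with a further match at -244 to -240 in LNPEP. TATAA was held by 14.8% of all windows and AGGTCA by 13.8%. The TRH window held a further TGACCT after its start, at 37 to 42. The windows of the further starts of ANPEP and LNPEP held neither TATAA nor AGGTCA. The further start of ANPEP lies upstream, with the 110 bases before it at chr15:89814853-89814962. The ANPEP sequence printed is thus that of the start with matches. Which start gave the RNA of these cells was not tested. The full cyclic AMP element TGACGTCA, held by 1.85% of windows, was not among the letters of any of the 7 members' windows. These matches describe letters, not binding.

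TRH RNA was the most different of the 7 between osmolyte-frozen cells and the rest. Its level, in counts scaled to a common library size (CPM), was 45.8 in fresh cells at 0 h, 57.1 with 1 h of DMSO and 59.3 with 1 h of medium. The DMSO-frozen libraries stood at 56.5 (0 h) and 58.9 (1 h), within that range. With the osmolyte solutions the level was 16.0 in SMC, 15.9 in SGC and 13.0 in SGI. Every osmolyte-frozen library thus lay below the lowest of the other 5, and the fresh and DMSO-frozen libraries overlapped.

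The mean level of TRH was 15.0 ± 1.69 CPM (SD, n = 3) in osmolyte-frozen cells, 57.7 ± 1.67 CPM (SD, n = 2) in DMSO-frozen cells and 54.1 ± 7.24 CPM (SD, n = 3) in fresh cells. That is 3.86-fold below the DMSO-frozen cells, a log2 fold change of -1.95 (SE 0.11), which is the contrast it was chosen on. Against fresh cells it was 3.62-fold lower, with a log2 fold change of -1.85 (SE 0.10). DMSO-frozen against fresh cells differed by 0.09 (SE 0.11). The gene lies on chromosome 3 from 129693114 to 129696779 in hg19, the build of the table, and overlaps no other gene of it. Between 600 and 2864 counts per library lie behind these levels.

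**Figure D1:**
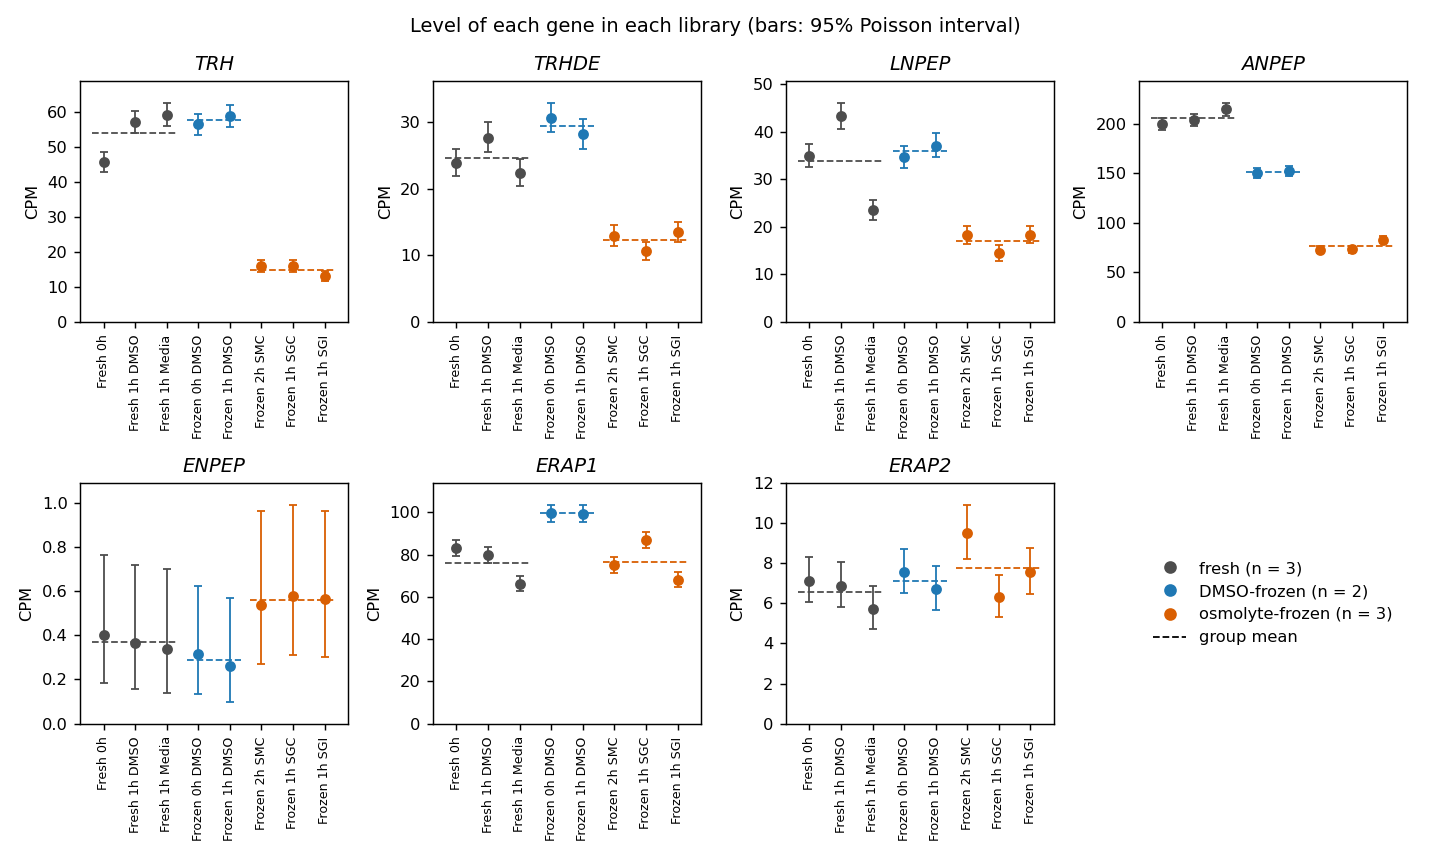
Level of each of the 7 genes in each of the 8 libraries, in CPM on a linear axis from 0; points are libraries, bars are 95% Poisson intervals of counting error and dashed lines are group means. The osmolyte-frozen libraries lie below the other 5 for TRH, TRHDE, LNPEP and ANPEP, above them for ENPEP, and among them for ERAP1 and ERAP2, apart from SMC, which is highest for ERAP2. TRH and ANPEP were chosen from their values in osmolyte-frozen against DMSO-frozen cells. The share of all genes set apart in this way was not counted.

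TRHDE, the membrane enzyme that inactivates the hormone, was lower in the same 3 libraries as the hormone precursor. The level was 23.9 CPM in fresh cells at 0 h, 27.7 with 1 h of DMSO and 22.3 with 1 h of medium. Both DMSO-frozen libraries were above these, at 30.6 (0 h) and 28.2 (1 h). The osmolyte-frozen libraries were at 12.9 in SMC, 10.6 in SGC and 13.5 in SGI, all below the other 5.

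Mean levels of TRHDE were 29.4 ± 1.76 CPM (SD, n = 2) in DMSO-frozen and 12.3 ± 1.501 CPM (SD, n = 3) in osmolyte-frozen cells, a fall of 2.39-fold. This is a log2 fold change of -1.25 (SE 0.11), with an adjusted p of 3.62e-07 (edgeR quasi-likelihood test, Benjamini-Hochberg over all genes). Against fresh cells, at 24.6 ± 2.75 CPM (SD, n = 3), the same edgeR test gave -0.999 (SE 0.11, adjusted p = 6.09e-07). Between DMSO-frozen and fresh cells the libraries did not overlap, but the difference of 0.26 (SE 0.11) did not pass the edgeR test, with an adjusted p of 0.339. In hg19 the gene spans 392894 bp of chromosome 12, from 72666529 to 73059422, and shares that stretch with LOC283392. The strand setting of the counting is not given in the sources used here, so reads of such overlapping genes cannot be told apart.

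Per length, in RPKM (reads scaled to gene length and to library total, as the authors deposited them), TRH stood above TRHDE in every library. The ratio of TRH to TRHDE was 5.30, 5.70 and 7.33 in fresh cells (0 h, 1 h with DMSO, 1 h in medium). In DMSO-frozen cells it was 5.10 at 0 h and 5.78 at 1 h. Osmolyte-frozen cells gave 3.42 in SMC, 4.13 in SGC and 2.67 in SGI. In osmolyte-frozen cells the RNA of the precursor was thus reduced by a larger factor than that of its degrading enzyme. The ratios of the osmolyte-frozen libraries did not overlap with those of the other libraries. As TRH was chosen on this contrast, the ratio is a description.

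ANPEP had the highest level per length of the 7 and was graded across the 3 groups. Fresh cells held 199.7 CPM at 0 h, 203.9 with 1 h of DMSO and 214 with 1 h of medium. DMSO-frozen cells held 150.1 (0 h) and 153 (1 h). Osmolyte-frozen cells held 73.0 in SMC, 73.2 in SGC and 83.0 in SGI. No library of one group overlapped with another group.

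Mean levels of ANPEP were 206 ± 7.57 CPM (SD, n = 3) in fresh, 151 ± 1.75 CPM (SD, n = 2) in DMSO-frozen and 76.4 ± 5.68 CPM (SD, n = 3) in osmolyte-frozen cells. Osmolyte-frozen cells were 1.98-fold below DMSO-frozen cells, a log2 fold change of -0.99 (SE 0.08), and 2.70-fold below fresh cells, at -1.43 (SE 0.08). DMSO-frozen cells were 1.36-fold below fresh cells, at -0.44 (SE 0.08). ANPEP lies on chromosome 15 from 90328126 to 90358072 in hg19. ANPEP is itself a mesenchymal marker, and of 9 other such markers 5 fell and 1 rose in osmolyte-frozen against DMSO-frozen cells, with a median log2 fold change of -0.40. Of all genes tested, 16.2% fell and 13.1% rose in that comparison.

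**Figure D2:**
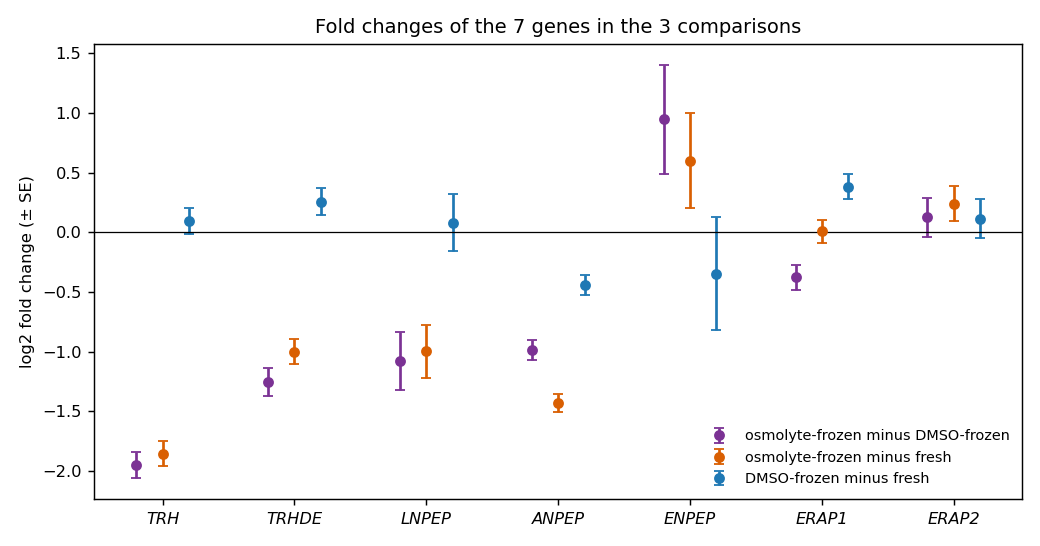
Log2 fold change of each of the 7 genes in the 3 comparisons, with bars of 1 SE; the 3 comparisons share libraries. TRH, TRHDE, LNPEP and ANPEP lie between -1.95 and -0.99 in both comparisons of osmolyte-frozen cells, while DMSO-frozen against fresh cells runs from -0.44 for ANPEP to 0.38 for ERAP1.

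LNPEP, the insulin-regulated aminopeptidase that also degrades oxytocin, was lower in osmolyte-frozen cells but varied more among fresh cells than any other member with a level above 1 CPM. It stood at 34.9 CPM in fresh cells at 0 h, 43.2 with 1 h of DMSO and 23.5 with 1 h of medium. The DMSO-frozen libraries were at 34.6 (0 h) and 37.1 (1 h). SMC was at 18.2, SGC at 14.4 and SGI at 18.3, so that the fresh library in medium lay nearest to the osmolyte-frozen ones without overlap.

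LNPEP fell 2.11-fold against DMSO-frozen cells, from 35.9 ± 1.73 CPM (SD, n = 2) to 17.0 ± 2.23 CPM (SD, n = 3), with a log2 fold change of -1.08 (SE 0.24) and an adjusted p of 0.0156 by edgeR. Against fresh cells, at 33.9 ± 9.89 CPM (SD, n = 3), it fell by 0.996 on the log2 scale (SE 0.22, adjusted p = 0.0111 by edgeR). DMSO-frozen and fresh cells overlapped, with a difference of 0.08 (SE 0.24, adjusted p = 0.923 by edgeR). The call against DMSO-frozen cells was lost without either DMSO-frozen library, with edgeR adjusted p = 0.0905 without frozen 1 h DMSO and 0.0901 without frozen 0 h DMSO. In those fits the remaining DMSO-frozen library is assumed to vary like the other groups.

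ERAP1 and ERAP2 are neighbours of LNPEP on chromosome 5 and its closest relatives. In hg19 ERAP1 lies from 96096514 to 96149848, ERAP2 from 96211644 to 96255406 and LNPEP from 96271346 to 96365115. The gaps are 61795 bp between ERAP1 and ERAP2 and 15939 bp between ERAP2 and LNPEP. ERAP1 overlaps CAST, the gene of calpastatin, so part of its count may come from that gene. The 3 neighbours had different profiles over the groups.

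ERAP1 was highest in DMSO-frozen cells. Its level was 83.0 CPM in fresh cells at 0 h, 79.6 with 1 h of DMSO and 66.0 with 1 h of medium. Both DMSO-frozen libraries stood at 99.4. The osmolyte-frozen libraries, at 75.0 in SMC, 86.8 in SGC and 68.2 in SGI, overlapped with the fresh ones and lay below the DMSO-frozen ones.

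The mean of ERAP1 was 99.4 ± 0.0249 CPM (SD, n = 2) in DMSO-frozen and 76.7 ± 9.43 CPM (SD, n = 3) in osmolyte-frozen cells. It was 1.30-fold lower in the latter, a log2 fold change of -0.38 (SE 0.10, adjusted p = 0.0126 by edgeR). That call was lost without SGI, without frozen 1 h DMSO and without frozen 0 h DMSO, where edgeR gave adjusted p = 0.0637, 0.0673 and 0.0867. Against fresh cells, at 76.2 ± 8.99 CPM (SD, n = 3), the difference was 0.01 (SE 0.09, adjusted p = 0.956 by edgeR). DMSO-frozen cells were 1.30-fold above fresh cells, at 0.38 (SE 0.10), with an adjusted p of 0.0797 by edgeR that misses the threshold. That difference passed without fresh 0 h (adjusted p = 0.0479 by edgeR), without SGC (0.0496), with no filter on low counts (0.0285) and with DESeq2 (0.0234).

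ERAP2 was low and overlapped between all groups. The fresh libraries were at 7.12 CPM at 0 h, 6.87 with 1 h of DMSO and 5.73 with 1 h of medium. Frozen in DMSO, cells held 7.54 (0 h) and 6.69 (1 h). SMC was at 9.48, the highest of the 8, SGC at 6.29 and SGI at 7.55. None of its differences passed the edgeR test. They were 0.12 (SE 0.16, adjusted p = 0.590) for osmolyte-frozen against DMSO-frozen cells, 0.24 (SE 0.15, adjusted p = 0.208) against fresh cells and 0.11 (SE 0.16, adjusted p = 0.819) for DMSO-frozen against fresh cells.

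A promoter window of each of ERAP1, ERAP2 and TRHDE held an element of the kind read by interferon regulatory factors. It was searched as GAAANNGAAA on both strands, and 3.57% of all windows held it. ERAP1 and ERAP2 each have a further start in RefSeq, whose window did not hold it. The matches are printed in the direction of each gene with the element in capitals, from RefSeq (GRCh38.p14). They show that 2 of the members of the antigen pathway have it at one of their starts. The element lies at 3 to 12 from the start in ERAP1 (chr5:96807924-96807953, minus strand), at -30 to -21 in ERAP2 (chr5:96876460-96876489, plus strand) and at -193 to -184 in TRHDE (chr12:72272167-72272196, plus strand).
ERAP1 element: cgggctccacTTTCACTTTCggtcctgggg
ERAP2 element: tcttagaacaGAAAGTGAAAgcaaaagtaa
TRHDE element: agtggggggaGAAAGCGAAAgccctaactt

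ENPEP, the aminopeptidase that cleaves angiotensin, was close to the lower limit of the measurement, with 12 to 26 counts per library. Fresh cells held 0.403 CPM at 0 h, 0.364 with 1 h of DMSO and 0.340 with 1 h of medium. The DMSO-frozen libraries were lower, at 0.316 (0 h) and 0.262 (1 h). SMC was at 0.538, SGC at 0.580 and SGI at 0.564, above the other 5, but the 95% Poisson intervals of single libraries overlapped between groups. The edgeR log2 fold change was 0.95 (SE 0.46, adjusted p = 0.129) against DMSO-frozen cells and 0.60 (SE 0.40, adjusted p = 0.244) against fresh cells. DMSO-frozen against fresh cells gave -0.35 (SE 0.47, adjusted p = 0.807 by edgeR). ENPEP lies on chromosome 4 from 111397229 to 111484493 in hg19.

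Of the 5 members with a test, 3 fell and none rose in osmolyte-frozen against DMSO-frozen cells (TRHDE, LNPEP and ERAP1), where 16.2% of the 15924 genes tested fell and 13.1% rose. Against fresh cells 2 fell (TRHDE and LNPEP) and none rose, where 20.7% of genes fell and 18.6% rose. In DMSO-frozen against fresh cells 0 of the 5 passed with edgeR, 2 had an unadjusted p under 0.05 (TRHDE and ERAP1) and 1 passed with DESeq2 (ERAP1), where 1.22% of genes rose and 0.603% fell. Without either DMSO-frozen library only TRHDE remained of the 3 calls against DMSO-frozen cells, and without SGI only TRHDE and LNPEP did. The median log2 fold change of the 7 members was -0.986, -0.996 and 0.09 in these comparisons, and that of all genes 0.04, 0.02 and -0.01. The 3 comparisons share libraries, and TRH and ANPEP, which these medians include, were chosen on the first of them. Their choice also bears on the second, which uses the same osmolyte-frozen libraries. The median of -0.986 is the value of ANPEP itself. Among the 5 members with a test, the middle values were -0.38 (ERAP1), 0.01 (ERAP1) and 0.11 (ERAP2), in the same order.

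Levels per length can be set against each other in RPKM. ANPEP was highest, with a mean of 27.0 over the 8 libraries (13.1 to 39.4), above 94.0% of genes. TRH followed at 13.8 (4.43 to 20.7), above 87.6% of genes, then ERAP1 at 7.41 (5.75 to 9.35), LNPEP at 4.03 (1.97 to 6.36) and TRHDE at 2.63 (1.25 to 3.94). ERAP2 was at 0.859 (0.666 to 1.09) and ENPEP at 0.0572 (0.0371 to 0.0772). Within each of the 8 libraries the order was the same, except that TRH lay below ERAP1 in the 3 osmolyte-frozen libraries. There TRH was at 5.19 in SMC, 5.17 in SGC and 4.43 in SGI, and ERAP1 at 6.45, 7.48 and 6.14. Over the 8 libraries TRH varied most, by 2.18 between its lowest and highest log2 CPM, and ERAP1 least, by 0.59.

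The 6 aminopeptidases together summed to 53.6, 57.6 and 51.2 RPKM in fresh cells (0 h, 1 h with DMSO, 1 h in medium). DMSO-frozen cells were close to that, at 48.8 (0 h) and 48.7 (1 h). The sum was 24.7 in SMC, 24.6 in SGC and 26.9 in SGI. ANPEP, which was chosen for its fall, was the largest part of every sum, with means of 38.5 RPKM in fresh, 29.4 in DMSO-frozen and 13.9 in osmolyte-frozen cells. The lower sum is therefore a description that follows largely from that choice. It came with a different composition. The library total behind RPKM also differs between groups, as given with the processing below.

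ANPEP made up 68.4 to 75.9% of the sum in fresh, 60.2 to 60.6% in DMSO-frozen and 53.0 to 57.7% in osmolyte-frozen cells. The share of ERAP1 ran the other way, from 11.2 to 13.9% in fresh to 19.0 to 19.2% in DMSO-frozen and 22.8 to 30.4% in osmolyte-frozen cells. ERAP2 made up 1.30 to 1.59%, 1.71 to 1.94% and 2.94 to 4.41%. LNPEP kept a share of 6.33 to 11.04% in fresh, 10.6 to 11.2% in DMSO-frozen and 7.99 to 10.1% in osmolyte-frozen cells. Shares of ANPEP, ERAP1 and ERAP2 did not overlap between the groups. As shares of 1 sum, they are not independent of each other or of ANPEP, which was chosen for its fall.

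**Figure D3:**
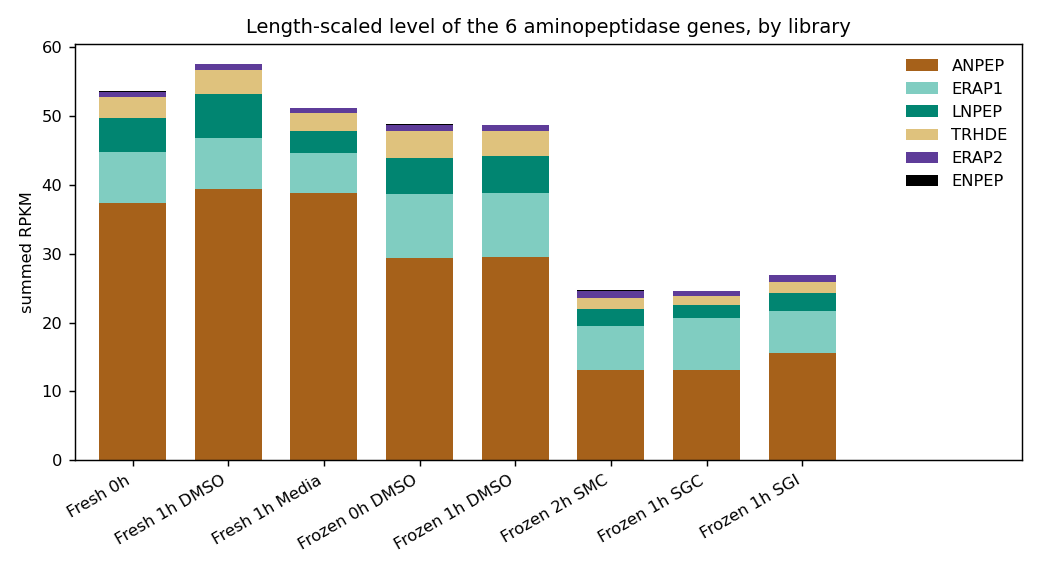
Summed RPKM of the 6 aminopeptidase genes in each library, stacked by gene on an axis from 0. The sums are 24.6 to 26.9 in the 3 osmolyte-frozen libraries and 48.7 to 57.6 in the other 5. ANPEP, which was chosen for its fall, is the largest part of every bar.

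Pairs of single libraries show how far the members moved within a group. They have no replicate, so ratios are given with 95% intervals that cover counting error only, and with no test. In fresh cells held for 1 h, LNPEP was 1.84-fold higher with DMSO than in medium (1.65 to 2.06), a ratio above those of 96.5% of the genes tested. TRHDE was 1.24-fold higher in the same pair (1.096 to 1.40) and ERAP1 1.21-fold (1.12 to 1.29). TRH (0.964, interval 0.890 to 1.04) and ANPEP (0.951, interval 0.912 to 0.992) were close to equal.

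Against fresh cells at 0 h, cells with 1 h of medium had 1.29-fold more TRH (1.19 to 1.41), and 1.48-fold less LNPEP (1.32 to 1.67). With DMSO for 1 h, TRH was 1.25-fold above 0 h (1.15 to 1.36). TRH was thus higher in both fresh libraries of 1 h than in that of 0 h.

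The 2 DMSO-frozen libraries, of 0 h and 1 h, were alike for the members with a level above 10 CPM. The ratio of 1 h to 0 h was 1.04 for TRH, 0.919 for TRHDE, 1.07 for LNPEP, 1.02 for ANPEP and 0.9996 for ERAP1, each with an interval that spans 1. At matched exposure, 1 h with DMSO, frozen cells had 1.34-fold less ANPEP than fresh cells (1.28 to 1.40) and 1.25-fold more ERAP1 (1.17 to 1.33). LNPEP was 1.16-fold lower (1.06 to 1.28), while TRH (1.03, interval 0.954 to 1.11) and TRHDE (1.02, interval 0.910 to 1.14) were close to equal.

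The osmolyte solutions differed less from each other than from DMSO for TRH, TRHDE, LNPEP and ANPEP. SGC and SGI share the time of 1 h. SGC had 1.22-fold more TRH than SGI (1.04 to 1.43) and 1.27-fold more ERAP1 (1.19 to 1.36). SGI in turn had 1.27-fold more TRHDE (1.07 to 1.51), 1.27-fold more LNPEP (1.096 to 1.47) and 1.13-fold more ANPEP (1.06 to 1.21). SMC was held for 2 h, so no ratio of SMC to SGC or SGI is given. It does enter the first sentence here and the means and tests of the osmolyte-frozen group.

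Genes with a profile like that of each member were sought over the 8 libraries by Pearson's r of log2 CPM, among 13060 other genes with a mean of at least 1 CPM. For TRH these were PCDHGB7 (r = 0.998), SNRNP200 (0.997), DCC (0.995), ZDHHC5 (0.995) and MYOF (0.994). PCDHGB7, a protocadherin, had means of 7.48 CPM in fresh, 7.69 in DMSO-frozen and 4.16 in osmolyte-frozen cells. DCC, the netrin receptor, had 1.65, 1.498 and 0.243 CPM, a wider step than that of TRH. SNRNP200, a splicing helicase, had 287, 286 and 210.4 CPM. A high r with TRH therefore does not mean a fold of the same size.

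The 3 genes most like TRHDE were DCTN5 (0.996), KIF13B (0.995) and C5orf30 (0.992), and those most like LNPEP were AKAP11 (0.994), ATF7IP (0.992) and SGK196 (0.990). For ANPEP they were ALDH3A2, ZNF423 and GPR56, each with r between 0.996 and 0.997. ZNF423, a zinc finger factor, was graded like ANPEP, at 13.4 CPM in fresh, 9.23 in DMSO-frozen and 4.82 in osmolyte-frozen cells. ENPEP was most like VSIG1, ATG14 and MARVELD3, with r from 0.975 to 0.986. For ERAP1 the closest was PAM (0.932), which amidates peptide hormones including that of TRH, followed by CLCC1 (0.932) and MANSC1 (0.930). ERAP2 was most like SNRK (0.972), SKIL (0.972) and FBXW7 (0.966). These r describe 8 libraries that share a group structure, with the osmolyte-frozen ones apart. The genes named depend on the measure: by Spearman's rho the 5 genes given for TRH ranked from 21 to 308, ALDH3A2 ranked 102 for ANPEP and PAM ranked 95 for ERAP1.

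Of the genes that turn the TRH precursor into hormone, FURIN, CPD and PAM had means above 100 CPM in each group. The neuroendocrine convertase PCSK1 was under 1 CPM in each group, and PCSK2 had 0 counts in every library, which allows up to 0.147 CPM. Of 12 processing genes tested, 1 rose and 2 fell in osmolyte-frozen against DMSO-frozen cells, with a median log2 fold change of 0.14. Of all genes tested, 13.1% rose and 16.2% fell in that comparison. The shares were 18.6% and 20.7% against fresh cells, and 1.22% and 0.603% for DMSO-frozen against fresh cells. These shares stand beside the counts of every list that follows. CPE, a carboxypeptidase of secretory granules, rose 2.21-fold, from 5.14 ± 1.63 CPM (SD, n = 2) to 11.4 ± 2.03 CPM (SD, n = 3), with an edgeR adjusted p of 2.64e-04. CPD, the carboxypeptidase of the trans-Golgi network, fell 1.83-fold (adjusted p = 0.00193 by edgeR), and FURIN, a general convertase, fell 1.26-fold (adjusted p = 0.00656 by edgeR). With libraries scaled by their total counts alone, 3 rose and 2 fell. PAM, the amidating enzyme, had a log2 fold change of -0.25 (adjusted p = 0.0516 by edgeR). Against fresh cells 4 rose and 2 fell, and between DMSO-frozen and fresh cells 0 passed with edgeR, 2 had an unadjusted p under 0.05 and 1, CPE, passed with DESeq2.

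The hormone's receptor TRHR had 0 to 2 counts per library and was not tested. Of 3 peptidases that act on TRH or are related to those that do, only PREPL, a relative of prolyl endopeptidase, fell against DMSO-frozen cells, by 0.46 on the log2 scale (adjusted p = 0.00477 by edgeR). PGPEP1, the cytosolic enzyme that removes the same first residue as TRHDE, was at 0.11 (adjusted p = 0.461 by edgeR). PREP, prolyl endopeptidase, was at -0.08 (adjusted p = 0.523 by edgeR). In the other 2 comparisons 0 of the 3 passed with edgeR or DESeq2, and 1, PREPL against fresh cells, had an unadjusted p under 0.05.

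Of 9 genes tested of the thyroid hormone axis, 6 fell and none rose in osmolyte-frozen against DMSO-frozen cells, with a median of -0.39. Among all genes tested 16.2% fell and 13.1% rose. DIO2, the deiodinase that makes the active hormone, fell 2.77-fold, from 113 ± 13.0 CPM (SD, n = 2) to 40.7 ± 1.66 CPM (SD, n = 3), with an edgeR adjusted p of 2.50e-09. NCOR1, a corepressor of nuclear receptors, fell 1.34-fold (adjusted p = 0.00184 by edgeR), and RXRA, the partner of the thyroid receptors, fell 1.31-fold (adjusted p = 0.00447 by edgeR). With libraries scaled by their total counts alone, 4 fell and none rose. Against fresh cells 6 of 9 fell and none rose, with DIO2 3.03-fold lower, where 20.7% of all genes tested fell and 18.6% rose. Between DMSO-frozen and fresh cells 0 passed with edgeR or DESeq2, and 1 had an unadjusted p under 0.05. The other 5 genes of the list, THRB, SLC16A10, TSHB, TSHR and CRYM, did not pass the filter on low counts.

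The other M1 metallopeptidases did not share the fall of ANPEP, TRHDE and LNPEP in size. Of 7 tested, 1 rose and 2 fell against DMSO-frozen cells, with a median of 0.01. C9orf3, aminopeptidase O, rose 1.38-fold (adjusted p = 9.98e-04 by edgeR). LTA4H, which makes leukotriene B4, fell 1.27-fold (adjusted p = 0.00315 by edgeR), and TAF2, a subunit of a transcription initiation factor, fell 1.31-fold (adjusted p = 0.00624 by edgeR). AQPEP, expressed below 1 CPM, was at 1.06 (adjusted p = 0.0614 by edgeR). Against fresh cells 2 rose and 3 fell. Between DMSO-frozen and fresh cells 0 passed with edgeR or DESeq2, and 1 had an unadjusted p under 0.05.

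Among 14 other peptidases of the cell surface, 5 fell and 1 rose against DMSO-frozen cells, with a median of -0.35. ACE, the angiotensin-converting enzyme, was graded like ANPEP, at 12.4 ± 1.096 CPM (SD, n = 3) in fresh, 6.78 ± 0.371 CPM (SD, n = 2) in DMSO-frozen and 3.01 ± 0.548 CPM (SD, n = 3) in osmolyte-frozen cells. It fell 2.26-fold against DMSO-frozen cells (adjusted p = 2.41e-05 by edgeR), and DMSO-frozen cells were 1.82-fold below fresh cells (adjusted p = 0.00254 by edgeR). DPP4, dipeptidyl peptidase, fell 2.04-fold against DMSO-frozen cells (adjusted p = 6.86e-05 by edgeR). The sheddases ADAM10 and ADAM17 fell 1.64-fold and 1.34-fold (adjusted p = 3.08e-05 and 6.35e-04 by edgeR). The 1 gene that rose, named after its value was seen, was FAP, a fibroblast surface protease, 1.39-fold higher (adjusted p = 9.37e-04 by edgeR). Against fresh cells 6 fell and 2 rose, and between DMSO-frozen and fresh cells 1 fell and 2 rose.

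Of 10 genes of the angiotensin system, 2 fell and none rose against DMSO-frozen cells, with a median of -0.16. They were ACE and NLN, neurolysin, which fell 1.61-fold (adjusted p = 1.63e-05 by edgeR). MME, neprilysin, had a log2 fold change of -0.38 (adjusted p = 0.0615 by edgeR), and DMSO-frozen cells had 2.08-fold more of it than fresh cells (adjusted p = 4.54e-04 by edgeR). Against fresh cells 2 fell and 2 rose.

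ERAP1 and ERAP2 serve antigen presentation. Of 20 genes of antigen peptide processing, 5 rose, 2 fell and 13 did not pass against DMSO-frozen cells, with a median of 0.01, where 13.1% of all genes tested rose and 16.2% fell. HLA-B rose 1.80-fold (adjusted p = 2.68e-05 by edgeR), and B2M, the light chain of HLA class I, rose 1.34-fold (adjusted p = 0.00168 by edgeR). CANX, a chaperone of class I folding, fell 1.46-fold (adjusted p = 1.02e-04 by edgeR). Reads of HLA genes may be split between near-identical paralogs, so their values are uncertain. Against fresh cells 5 rose and 4 fell, and between DMSO-frozen and fresh cells 1 rose.

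Genes of the vesicles and substrates of LNPEP were also mixed, with 4 of 11 higher and 3 lower against DMSO-frozen cells, and a median of -0.04. RAB10, a GTPase of vesicle traffic, fell 1.48-fold (adjusted p = 5.58e-05 by edgeR), and TNKS, tankyrase, which binds LNPEP, fell 1.38-fold (adjusted p = 0.00269 by edgeR). SORT1, sortilin, rose 1.34-fold (adjusted p = 0.00491 by edgeR), and OXTR, the oxytocin receptor, rose 1.38-fold (adjusted p = 0.00165 by edgeR). Against fresh cells 3 rose and 4 fell, and between DMSO-frozen and fresh cells 1 rose.

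**Figure D4:**
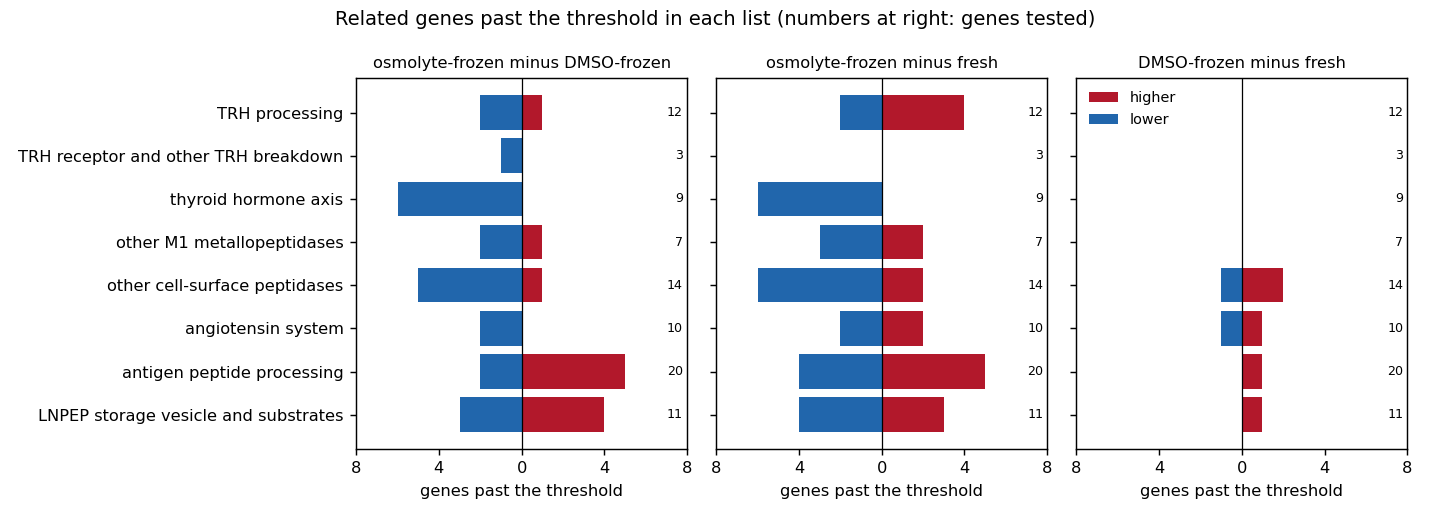
Number of genes past an adjusted p of 0.05 in each list of related genes, higher to the right and lower to the left of 0, in the 3 comparisons, with the number tested at the right of each row. The thyroid hormone list has 6 of 9 lower and none higher in both comparisons of osmolyte-frozen cells, and few genes pass between DMSO-frozen and fresh cells. Of all genes tested, 16.2% were lower and 13.1% higher against DMSO-frozen cells, and 20.7% lower and 18.6% higher against fresh cells.

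Total counts ran from 41198716 to 51166666 per library. All 9 mesenchymal markers were above 1 CPM in every group, with summed levels of 39510 to 41900 CPM in fresh, 40070 to 47170 in DMSO-frozen and 40810 to 53730 in osmolyte-frozen cells. Most of that sum was COL1A1, with means of 30330, 33200 and 37870 CPM in these groups. In osmolyte-frozen cells 5 of the 9 fell and 1 rose against DMSO-frozen cells, and 6 fell and 2 rose against fresh cells. All 8 markers of neurons and neuroendocrine cells, the cells TRH is best known from, had group means under 1 CPM (CHGB reached 1.16 CPM in 1 osmolyte-frozen library), with OTP at 0 counts in all libraries, and their sum was 1.17 to 1.36, 1.34 to 1.36 and 1.61 to 2.45 CPM. Only 3 of them passed the filter on low counts, and 0 of these passed in any comparison with edgeR or DESeq2. The 8 pluripotency markers summed to 17.7 to 18.4 CPM in fresh, 22.3 to 23.6 in DMSO-frozen and 30.3 to 30.9 in osmolyte-frozen cells, with SOX2 and TDGF1 under 1 CPM in every library. PODXL was the largest part of that sum, with means of 10.2, 15.8 and 18.0 CPM in these groups. Of 6 pluripotency markers tested, 2 rose and none fell against DMSO-frozen cells, and 5 rose and none fell against fresh cells. Sums for pericyte (460.4 to 553 CPM), endothelial (41.2 to 58.8 CPM), epithelial (1212 to 1535 CPM) and blood (1.71 to 2.49 CPM) markers overlapped between osmolyte-frozen and other libraries, but each is mostly carried by 1 or 2 abundant genes. Of the 6 pericyte markers, 2 rose and 1 fell against DMSO-frozen cells, and 4 rose and 1 fell against fresh cells. RGS5, a pericyte marker, was 1.60-fold higher in osmolyte-frozen than DMSO-frozen cells (adjusted p = 9.69e-04 by edgeR) and 2.56-fold above fresh cells (adjusted p = 2.56e-07 by edgeR), at 60.4 to 84.8 CPM against 26.0 to 48.2 in the other 5 libraries. Of the 6 endothelial markers 2 fell against DMSO-frozen cells, and against fresh cells 1 rose and 2 fell. Of 5 epithelial markers tested 0 passed against DMSO-frozen cells with edgeR or DESeq2 (1, KRT18, had an unadjusted p under 0.05), and 2 rose and 1 fell against fresh cells. The nuclear-retained RNAs MALAT1 and NEAT1 together were at 4707 to 5673 CPM in fresh, 4065 to 4562 in DMSO-frozen and 8373 to 9138 in osmolyte-frozen cells. These RNAs, RGS5 and the sums of the pluripotency and neuron markers were higher in every osmolyte-frozen library than in the other 5, as TRH, TRHDE, LNPEP and ANPEP were lower, and their part in these results was not tested. The share of all genes set apart in this way was not counted.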

How the data were processed

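Per the labels' protocols, total RNA of 8 libraries came from a miRNeasy kit and went into standard Illumina libraries. CASAVA 1.9, TopHat 12.0.6, HTSeq and hg19 are listed, with no roles, in the submitters' processing notes. Which annotation release and strand setting were used is not given in the sources used. The authors deposited 1 table, which per the file headers pairs a whole-number count with an RPKM value for every gene and library. Deposited counts are not normalised, and all are even (0 odd values), so Poisson intervals of 95% treat 2 counts as 1 event. These intervals hold counting error alone, because PCR copies were not marked by molecular identifiers. The deposited RPKM values use the length in the table and a library total above the summed counts. They were used for levels per length, for their ratios, sums and shares, and in 1 alternative test. The summed counts were 64.0 to 66.9% of that total in osmolyte-frozen, 72.1 to 73.0% in DMSO-frozen and 66.2 to 70.4% in fresh libraries. Relative to CPM, RPKM is therefore lower in osmolyte-frozen than in DMSO-frozen libraries. Of 23398 entries, repeats with identical counts were kept once, which left 23354. No library repeated another (chi-square over degrees of freedom at least 6.54 for each pair).

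The test was that of edgeR 4.0.16 under R 4.3.3 (filterByExpr by group, TMM, robust glmQLFit, glmQLFTest), in 1 model of the 3 groups (5 residual degrees of freedom) and Benjamini-Hochberg adjustment over 15924 genes at 0.05. SE is the size of the log2 fold change over the root of F. CPM uses the TMM factors, and log2 CPM a prior count of 2. Alternatives used DESeq2 1.42.0, limma 3.58.1 on log2(RPKM + 0.1), other scaling, no filter, and fits without each library. Scripts were tested on simulated data. The members, lists and rules were chosen with earlier results of these data known. In each list up to 4 genes are named, those with the lowest adjusted p in osmolyte-frozen against DMSO-frozen cells. For 2 genes that this rule picks, values are not reported here.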

Additional observations from a re-analysis of the deposited data

How the results depend on the processing

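Members' values kept their direction and their side of the threshold under the 14 alternatives tried for each, apart from the cases given here and from differences close to 0, a few of which changed sign. TRHDE passed in all 14 in both comparisons of osmolyte-frozen cells, with adjusted p from 2.41e-20 to 1.51e-04 against DMSO-frozen cells and from 2.92e-16 to 1.57e-04 against fresh cells. LNPEP passed in all 14 against fresh cells (2.15e-07 to 0.0370). TRH stayed between -2.03 and -1.86 against DMSO-frozen cells and ANPEP between -1.08 and -0.93. The exceptions are the calls of LNPEP and ERAP1 given with their values above. For osmolyte-frozen against DMSO-frozen cells, genes past the threshold ranged from 2122 (without frozen 0 h DMSO) to 5254 in fits without a library, against 4670 in all, and fewer samples enter those fits. For DMSO-frozen against fresh cells the number was 290, and 499 with DESeq2 (cause was not tested), and 99 to 310 in fits without a library, with 99 without frozen 1 h DMSO and 106 without frozen 0 h DMSO. Of the genes called between osmolyte-frozen and DMSO-frozen cells 44.8% were higher, and 56.4% with library totals alone, where the median of all genes was 0.10 in place of 0.04, and 27.4% with limma on RPKM. For DMSO-frozen against fresh cells the share was 66.9%, and 77.2% with limma on RPKM. The rank correlation with TRH, in place of Pearson's r, was 0.952 for PCDHGB7 and DCC, 0.881 for SNRNP200 and MYOF and 0.857 for ZDHHC5. No paired analysis was possible because the labels give no replicate numbers. Depth limits ENPEP most, at 12 to 26 counts.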
